A study of Mus musculus with 14 samples.

Results

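The myeloid CC chemokines are small secreted proteins with 2 adjacent cysteines that bind receptors coupled to G proteins and draw monocytes, macrophages, T cells and eosinophils into tissue. Ccl2, Ccl3, Ccl4, Ccl5, Ccl6, Ccl7, Ccl8, Ccl9 and Ccl11 were followed here with Ccr2, the receptor that monocytes use to leave the bone marrow and to enter inflamed fat. The members were taken by gene name from the deposited table: 10 genes of 54955 gene names or unnamed IDs, each with 1 row, and 10 of 10 passed the filter on low values. In obese adipose tissue this family is best known for the Ccl2 to Ccr2 route of monocyte entry.

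The libraries came from adipose tissue of C57BL/6 mice at 21 weeks of age, 7 of them labelled as knockout (KO) for Dectin-1 and 7 as wild type (WT). Dectin-1, encoded by Clec7a, is a receptor for fungal β-glucan on macrophages and dendritic cells. The labels name no depot, sex, diet, targeting design or batch, and both groups share strain and age. The series' design gives 7 mice of each genotype, which makes 1 mouse per library, and does not say how they were housed or paired. The values are TPM, a relative transcript abundance scaled by gene length, so levels of different genes can be set side by side.

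The targeted gene does not check the labels at this resolution. Clec7a averaged 6.94 ± 2.61 TPM in KO mice against 10.99 ± 5.99 TPM in WT mice (SD, n = 7 each; limma log2 fold change -0.48 ± 0.33 SE, adjusted p = 0.594), and a gene-level value cannot show which exons were read. Each library held from 13487 to 15562 genes with at least 1 TPM. The library of KO replicate 7 and those of WT replicates 4 and 7 stand apart: the B-cell receptor gene Cd79a was at 1.52, 0.62 and 1.31 TPM in them, against 177 to 720 TPM in the other 11. Their summed T and NK cell markers were at 41.5, 6.76 and 21.0 TPM, in the same order, against 220 to 709 TPM in the other 11. The KO to WT comparison of each member is therefore given over 14 libraries and again over the 11 others, 6 KO and 5 WT.

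By level the members ran from Ccl5 down to Ccl3. Means over the 14 libraries were 633 ± 444 TPM for Ccl5, 159 ± 104 TPM for Ccl8, 51.9 ± 28.3 TPM for Ccl6, 47.7 ± 34.3 TPM for Ccl11 and 23.9 ± 12.5 TPM for Ccl9 (SD, n = 14). The lower part of the order was Ccl7 at 10.3 ± 7.30 TPM, Ccl2 at 7.31 ± 6.43 TPM, Ccr2 at 6.74 ± 2.14 TPM, Ccl4 at 2.20 ± 1.16 TPM and Ccl3 at 1.88 ± 2.0 TPM (SD, n = 14). Ccl2, the member most often measured in fat, was thus among the less abundant of the 10. Ccl5 exceeded Ccl8 in 12 of 14 libraries, Ccl9 exceeded Ccl7 in 13 and Ccr2 exceeded Ccl4 in 13. For 5 of the 9 neighbouring pairs in this order the mean difference in log2(TPM + 1) was smaller than its SD over the 14 libraries. These were Ccl8 over Ccl6 (1.27 ± 1.84), Ccl6 over Ccl11 (0.22 ± 0.63), Ccl7 over Ccl2 (0.49 ± 0.57), Ccl2 over Ccr2 (-0.12 ± 0.82) and Ccl4 over Ccl3 (0.28 ± 0.59). The first gene of these pairs was higher in 11, 9, 12, 5 and 11 of 14 libraries, in the same order. The SD describes the spread between libraries, and the differences were not tested. Over the 11 libraries Ccl8 exceeded Ccl6 in 11 of 11, by 2.09 ± 0.86, and Ccl4 exceeded Ccl3 by 0.40 ± 0.38, both beyond the SD, while Ccl11 exceeded Ccl9 by 0.76 ± 0.79, which was within it. There Ccl2 over Ccr2 stood at 0.084 ± 0.80. Ccl3 was under 1 TPM in 6 libraries, Ccl4 in 2 and Ccl2 in 1.

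**Figure D1:**
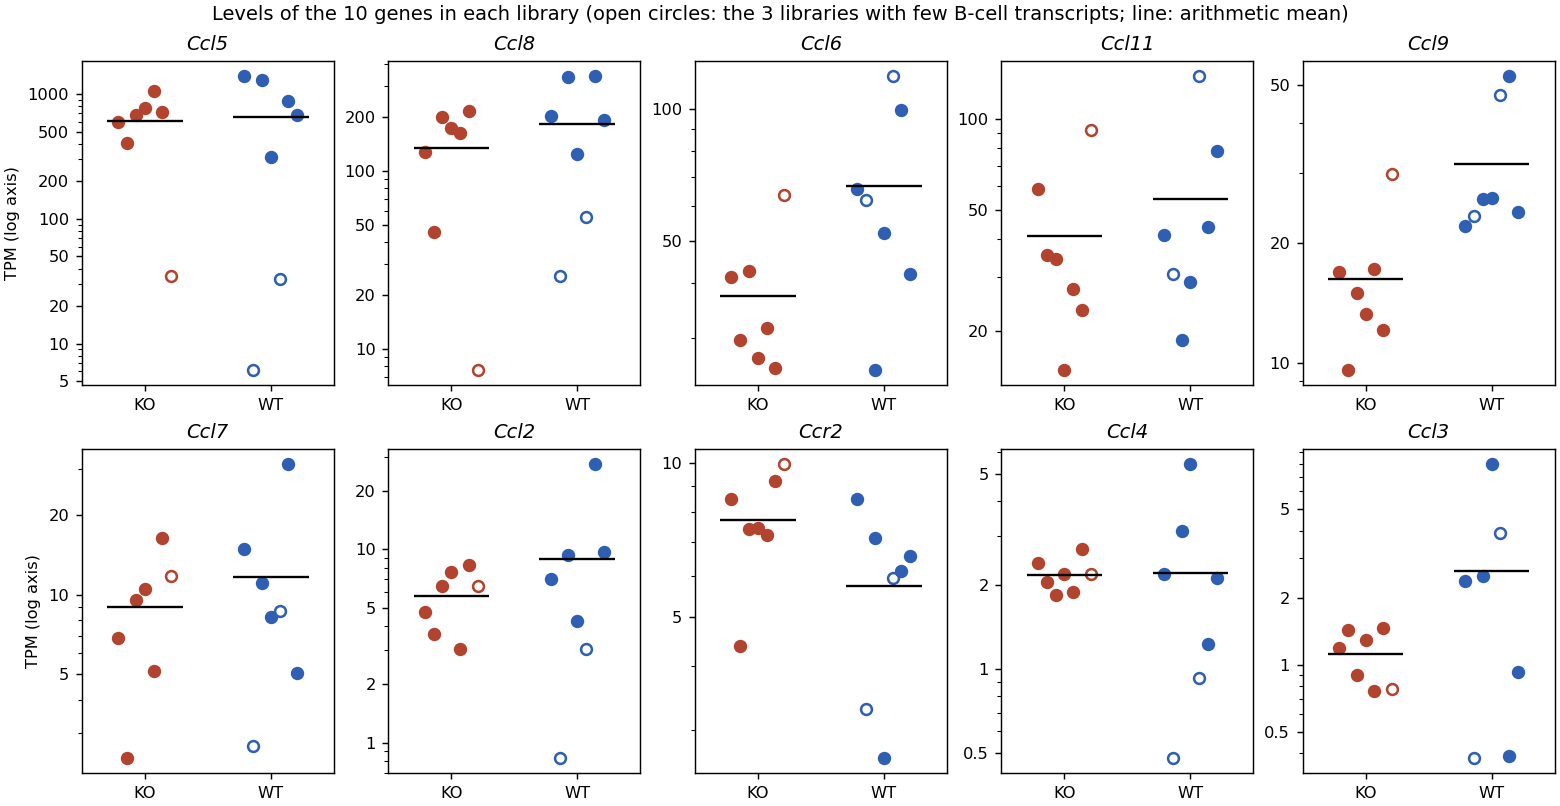
Level of each of the 10 genes in every library, in TPM on a log axis, with KO left of WT and genes in order of mean level. Each circle is 1 library, open circles are the 3 libraries with few B-cell transcripts, and the line is the arithmetic mean of the group; Ccl9 is the gene whose filled circles part into KO at 9.59 to 17.2 TPM and WT at 22.0 to 52.6 TPM.

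The make-up of the ligand transcripts differed between libraries. In the 11 libraries with many B-cell transcripts, Ccl5 held 54.9% to 81.0% of the summed TPM of the 9 ligands. In KO replicate 7 it held 14%, against 4.03% for WT replicate 4 and 8% for WT replicate 7. In those 3 libraries the leading ligands were Ccl11 in KO replicate 7 (37.0%), Ccl6 in WT replicate 4 (40.7%) and Ccl11 in WT replicate 7 (33.9%). All 9 ligands together reached 249 TPM in the first of these, 152 and 410 TPM in the WT pair, and 538 to 1757 TPM in the others.

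**Figure D2:**
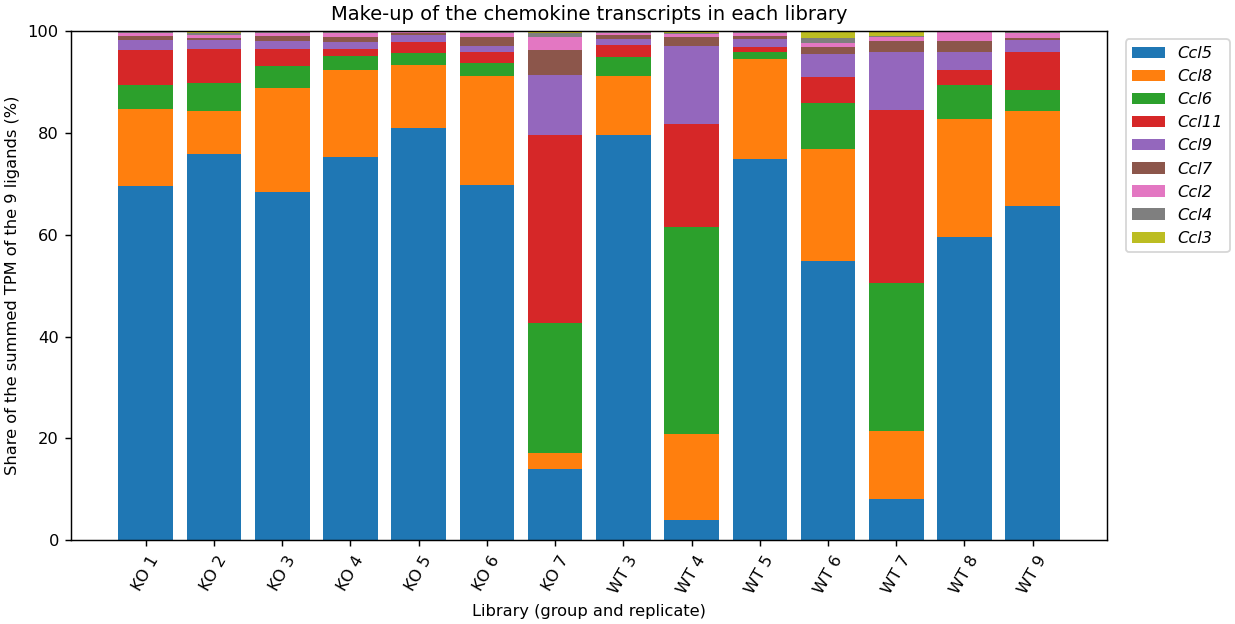
Share of each ligand in the summed TPM of the 9 ligands, in percent, for each library, KO left of WT. Ccl5 fills most of each bar except in KO replicate 7, WT replicate 4 and WT replicate 7, where Ccl6 and Ccl11 take more.

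Over all 14719 genes tested, limma-trend called 3 genes at an adjusted p under 0.05 (0.0204% of those tested), and 0 of the 10 members were among them. At an unadjusted p under 0.05 it gave 2 members, Ccl9 and Ccl6, both lower in KO; over all genes tested that rule took 11.4% (6.74% lower and 4.67% higher). Of the members, 7 had lower and 3 higher values in KO, with a median log2 fold change of -0.27, where 45.4% of all genes tested had lower values and the median was 0.04. In the 11 libraries 9 of 10 members had lower values and the median was -0.57; there 51.6% of all genes had lower values and the median was -0.01. In that fit 0 genes of the table were called and 10.2% had an unadjusted p under 0.05, with Ccl9 and Ccl6 the members among them. The direction of Ccl5 and Ccl4 thus turned when the 3 libraries were left out. Groups did not overlap for 0 members over 14 libraries (0.319% of all genes) and for 1 member, Ccl9, over the 11 (1.24%). In bulk tissue, fewer cells of a type and less RNA per cell cannot be told apart.

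**Figure D3:**
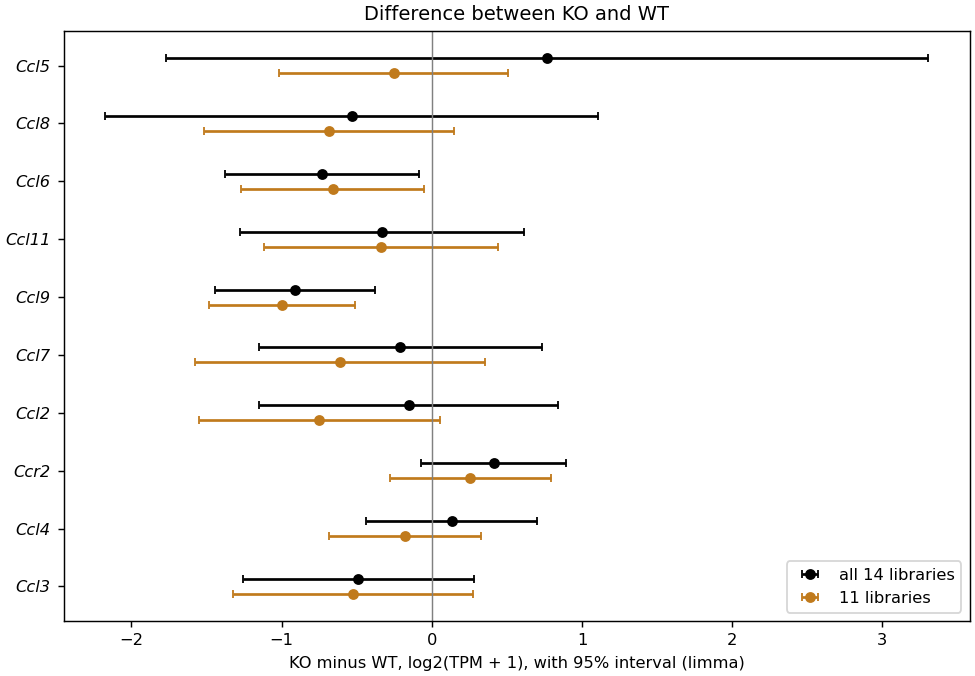
Log2 fold change (KO over WT, from TPM + 1) of each gene, with its 95% interval from limma, over all 14 libraries (black) and over 11 libraries (orange). The intervals of Ccl9 and Ccl6 lie below 0 in both fits, and the interval of Ccl5 narrows from -1.77 to 3.31 over 14 libraries to -1.02 to 0.51 over 11.

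Ccr2 (ENSMUSG00000049103), the receptor, was the most even of the members, with a coefficient of variation of 31.7% over the 14 libraries. In KO its lowest, median and highest values were 4.37, 7.45 and 9.95 TPM, and in WT 2.64, 6.15 and 8.51 TPM. The groups overlapped: 2 KO libraries lay above every WT library and 2 WT libraries below every KO library. Its log2 fold change was 0.41 ± 0.23 (SE; limma adjusted p = 0.496), and over the 11 libraries 0.26 ± 0.25 (adjusted p = 0.781). Summed monocyte markers spanned 74.2 to 470 TPM in KO and 123 to 708 TPM in WT, with 5 of 9 lower in KO, and their part in the level of Ccr2 was not tested. KO replicate 7 had both the lowest monocyte sum and the highest Ccr2 value of the 14 libraries.

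Ccl2 and Ccl7, neighbouring genes whose products both bind Ccr2 and attract monocytes, were low and did not part the groups. Ccl2 had 3.05, 6.43 and 8.34 TPM as its lowest, median and highest value in KO, and 0.83, 7.07 and 27.7 TPM in WT. Its highest and lowest values of all 14 libraries were thus both in WT, in replicates 8 and 4. Ccl2 had a log2 fold change of -0.15 ± 0.46 (SE; limma adjusted p = 0.895), and -0.75 ± 0.37 over the 11 libraries (adjusted p = 0.518). Ccl7 had 2.41, 9.54 and 16.4 TPM in KO and 2.67, 8.69 and 31.2 TPM in WT. WT replicate 8 was the highest library for both genes. Ccl7 had a log2 fold change of -0.21 ± 0.44 (SE; limma adjusted p = 0.848), and -0.61 ± 0.45 over the 11 libraries (adjusted p = 0.692). Ccl7 exceeded Ccl2 in 12 of 14 libraries.

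Ccl8, a ligand that in mice is known to act on Ccr8, was the second most abundant member and the one with the widest range after Ccl5. Its lowest, median and highest values were 7.61, 163 and 218 TPM in KO and 25.7, 193 and 343 TPM in WT. The lowest value of KO was in replicate 7 and the lowest values of WT were in replicates 4 and 7, at 25.7 and 55.5 TPM, so the 3 libraries with few B-cell transcripts were the low end in both groups. Over the other 11 libraries Ccl8 spanned 45.5 to 218 TPM in KO and 125 to 343 TPM in WT. Ccl8 had a log2 fold change of -0.53 ± 0.77 (SE; limma adjusted p = 0.770), and -0.68 ± 0.38 over the 11 libraries (adjusted p = 0.578).

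The promoter of Ccl8 is shown because this gene, unlike Ccl6 and Ccl9, was low where B-cell and T-cell transcripts were low. It runs from 250 bases before to 50 after the annotated start, chr11:82114935-82115234 on the plus strand of GRCm38.p6, from RefSeq, with a TATAAA box in capitals.
Ccl8: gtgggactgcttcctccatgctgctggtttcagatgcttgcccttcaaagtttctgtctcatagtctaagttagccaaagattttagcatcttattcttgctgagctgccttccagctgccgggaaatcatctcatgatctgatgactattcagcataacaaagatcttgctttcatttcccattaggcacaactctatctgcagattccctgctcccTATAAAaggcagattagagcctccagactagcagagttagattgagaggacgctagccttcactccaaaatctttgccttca
The box begins 32 bases before the start. TATAAA, searched on both strands, occurs in 14.2% of 27025 promoters of this length, and among the 5 members with a promoter in the table (Ccl3, Ccl6, Ccl8, Ccl9 and Ccr2) in 2, Ccl8 and Ccl9. Of the other motifs searched on both strands, the AP-1 form TGANTCA (7.93% of promoters) was in Ccl9, and the ETS core AGGAAG (35.1%) in Ccl8 and Ccl6. The NF-kB motif (1.43%), the longer PU.1 form of the ETS motif (3.28%), which contains the ETS core, the C/EBP motif (10.8%), the interferon-stimulated response element (3.49%) and the gamma-activated site (8.47%) had no match in these 5 windows.

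Ccl5 (ENSMUSG00000035042), or RANTES, made by activated T cells, NK cells and macrophages and known to attract T cells and monocytes, was the most abundant member. Its lowest, median and highest values were 35.0, 673 and 1064 TPM in KO and 6.14, 682 and 1397 TPM in WT. The lowest in KO was replicate 7 and the lowest in WT were replicates 4 and 7, at 6.14 and 32.8 TPM. The other 11 libraries spanned 408 to 1064 TPM in KO and 314 to 1397 TPM in WT, a range of 4.44-fold, where all 14 spanned 228-fold. For Ccl5 the log2 fold change was 0.77 ± 1.18 (SE; limma adjusted p = 0.785), and it turned to -0.26 ± 0.35 over the 11 libraries (adjusted p = 0.858). T and NK cell markers moved with this gene: their sum was 41.5 to 671 TPM in KO and 6.76 to 709 TPM in WT, with 10 of 10 markers higher in KO over 14 libraries and a median log2 fold change of 0.63, against -0.09 over the 11. Their part in the level of Ccl5 was not tested.

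**Figure D4:**
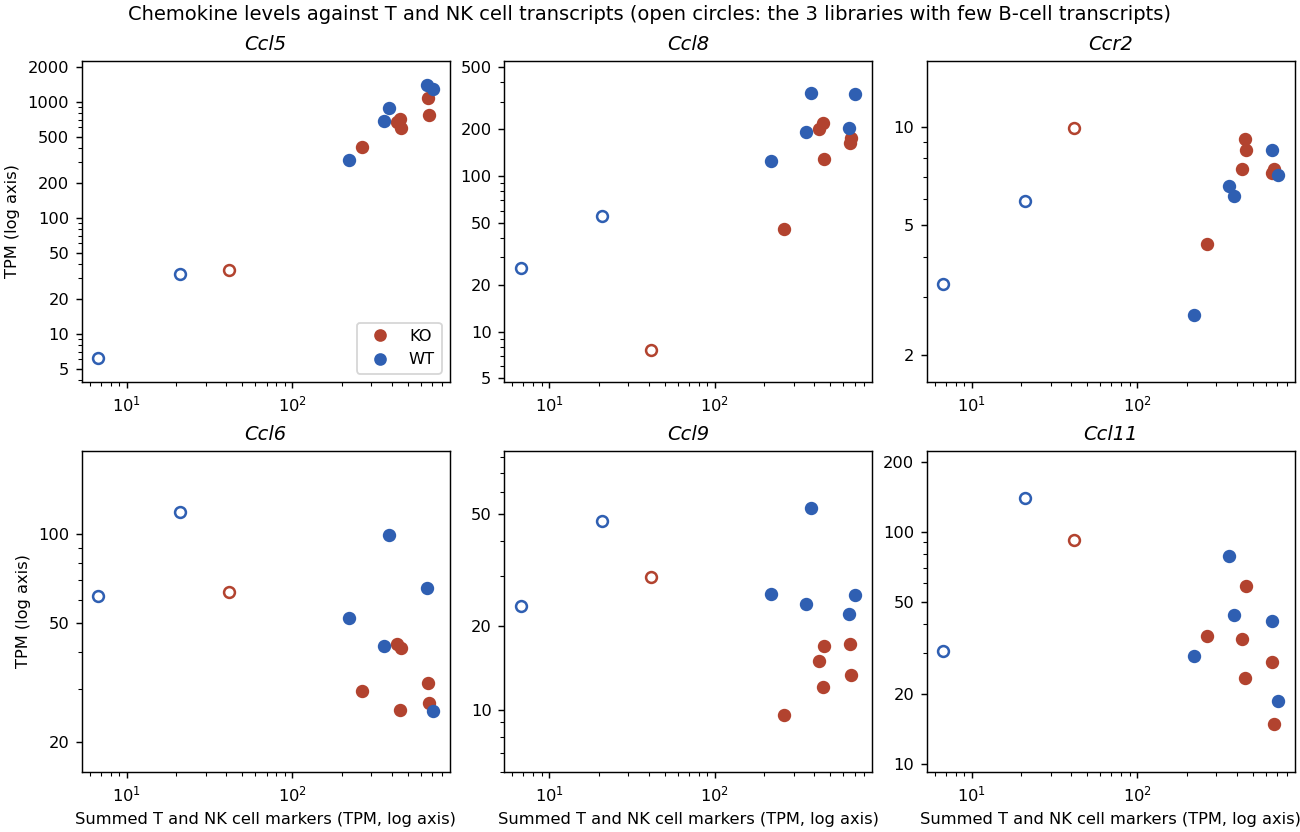
TPM of 6 members against the summed TPM of 10 T and NK cell markers, both on log axes, 1 circle per library, open for the 3 libraries with few B-cell transcripts. Ccl5 is at 6.14 to 35.0 TPM in those 3 libraries and at 314 TPM or more in the rest, while Ccl6 is at 61.9 to 119 TPM in them and at 25.3 to 99.5 TPM in the rest.

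Ccl3 and Ccl4, adjacent genes for macrophage inflammatory proteins 1α and 1β, which attract leukocytes, were the least abundant members. Ccl3 had 0.76, 1.19 and 1.46 TPM as its lowest, median and highest value in KO, and 0.38, 2.37 and 7.98 TPM in WT. Ccl4 had 1.84, 2.19 and 2.69 TPM in KO and 0.48, 2.12 and 5.45 TPM in WT. The KO values of both genes lay inside the range of the WT values, and WT replicate 6 was the highest library for both. Their log2 fold changes were -0.49 ± 0.36 for Ccl3 and 0.13 ± 0.27 for Ccl4 (SE; limma adjusted p = 0.609 and 0.840). Over the 11 libraries they were -0.52 ± 0.37 and -0.18 ± 0.23 (adjusted p = 0.683 and 0.849).

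Ccl6 (ENSMUSG00000018927) and Ccl9 (ENSMUSG00000019122), neighbouring genes of a rodent branch whose products are known in mice to act on Ccr1, had the smallest p-values of the 10. Ccl9 stood at 9.59, 15.0 and 29.8 TPM as the lowest, median and highest value in KO, and at 22.0, 25.8 and 52.6 TPM in WT. In 6 of 7 KO libraries Ccl9 was below every WT library; the exception was KO replicate 7. Means were 16.3 ± 6.54 TPM in KO and 31.5 ± 12.7 TPM in WT (SD, n = 7 each), a ratio of 0.515. Ccl9 had a log2 fold change of -0.91 ± 0.25 (SE; 95% interval -1.44 to -0.38; limma adjusted p = 0.222), which did not pass the threshold. By p it was number 158 of 14719 genes. Over the 11 libraries Ccl9 spanned 9.59 to 17.2 TPM in KO and 22.0 to 52.6 TPM in WT, with no overlap, as did 0.972% of all genes in that direction. Its log2 fold change there was -1.0 ± 0.23 (SE; limma adjusted p = 0.199), number 47 by p, and again did not pass.

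Ccl6 had 25.6, 31.6 and 63.6 TPM as its lowest, median and highest value in KO, and 25.3, 61.9 and 119 TPM in WT. The highest KO library was replicate 7 and the highest WT library was replicate 7, while WT replicate 5 lay below every KO library. Means were 37.3 ± 13.4 TPM in KO and 66.5 ± 32.6 TPM in WT (SD, n = 7 each). Ccl6 had a log2 fold change of -0.73 ± 0.30 (SE; limma adjusted p = 0.404), and of -0.66 ± 0.28 over the 11 libraries (adjusted p = 0.460), past the threshold in neither. The level of Ccl9 was 0.324 to 0.568 times that of Ccl6 in 13 libraries and 1.02 times in WT replicate 5.

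Macrophage markers had the same direction between the groups as Ccl9 and Ccl6, but so did other marker lists. Fibroblast markers were lower in KO in 6 of 7, with a median log2 fold change of -0.51, and adipocyte markers in 6 of 7, with -0.55. Skeletal muscle markers were lower in 5 of 5, though their median was 0.34 over the 11 libraries. In KO replicate 7 Ccl9 and Ccl6 were the highest of the KO libraries. There the macrophage sum was the lowest of the KO libraries, and the fibroblast and adipocyte sums were the highest. How the markers and these genes relate library by library was not tested. Of 12 macrophage markers 11 had lower values in KO, with a median log2 fold change of -0.50 and 0 called. The most abundant were C1qa, a complement subunit, at 129.6 ± 34.0 TPM in KO and 218.9 ± 75.4 TPM in WT, and C1qb at 97.5 ± 28.8 TPM in KO and 169.8 ± 59.8 TPM in WT (SD, n = 7 each). The 12 markers summed to 264 to 583 TPM in KO and 234 to 1131 TPM in WT, and over the 11 libraries 311 to 583 TPM in KO and 593 to 1131 TPM in WT, also without overlap. As a score, the mean log2 level of the 12 markers, KO libraries had 4.33 ± 0.38 and WT libraries 4.72 ± 0.73 (SD, 7 libraries each); no marker was under 1 TPM throughout. With that score as a covariate the log2 fold change of Ccl9 was -0.90 ± 0.27 (SE; limma adjusted p = 0.0389) and that of Ccl6 was -0.76 ± 0.33 (adjusted p = 0.114). In the same fit Ccr2 was higher, at 0.60 ± 0.19 (SE; limma adjusted p = 0.0437). That fit called 16.8% of all genes, 13.3% higher and 3.43% lower. With array weights, which give less weight to libraries that vary more, Ccl9 was the 1 member called, lower in KO, where 5.59% of all genes were called and 3.91% were called lower.

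The promoters of Ccl6 and Ccl9 are shown because these neighbours had similar patterns. Both are from RefSeq on the minus strand of GRCm38.p6, at chr11:83593038-83593337 for Ccl6 and chr11:83578587-83578886 for Ccl9, in the same window around the annotated start. Capitals mark bases in runs of at least 10 that the other promoter also holds on the same strand; the first capital stretch of Ccl9 is a pair of such runs that overlap, and Ccl6 holds them apart.
Ccl6: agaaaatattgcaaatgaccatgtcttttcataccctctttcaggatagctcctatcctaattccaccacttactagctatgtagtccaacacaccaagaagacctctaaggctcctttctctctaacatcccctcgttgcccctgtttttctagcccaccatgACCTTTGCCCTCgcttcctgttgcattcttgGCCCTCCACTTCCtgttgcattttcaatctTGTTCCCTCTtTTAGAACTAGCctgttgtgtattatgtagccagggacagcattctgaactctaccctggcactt
Ccl9: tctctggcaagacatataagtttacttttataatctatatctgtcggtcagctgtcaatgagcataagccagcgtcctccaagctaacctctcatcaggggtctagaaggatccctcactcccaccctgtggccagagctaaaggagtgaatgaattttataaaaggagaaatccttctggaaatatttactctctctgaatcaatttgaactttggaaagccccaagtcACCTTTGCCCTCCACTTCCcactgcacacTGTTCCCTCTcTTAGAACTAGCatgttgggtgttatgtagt
Such runs cover 46 of 300 bases in Ccl6 and 40 of 300 in Ccl9, and they stand in the same order in both. Their places relative to the annotated start differ. In Ccl6 they begin 86, 55, 25 and 14 bases before it. In Ccl9 the first capital stretch begins 20 bases before it, while TGTTCCCTCT and TTAGAACTAGC begin after it. The longest shared run, GCCCTCCACTTCC, is in 0.0185% of 27025 promoters on either strand, and TTAGAACTAGC in 0.0148%. In the other 9 pairs among the 5 members with a promoter the longest shared run was 7 to 9 bases. Ccl6 and Ccl9 transcripts share at most 25 bases in a row in GENCODE M21, and no exon of the 10 members overlaps an exon of another gene there. A matching run describes the letters and names no factor.

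Ccl11, or eotaxin, the ligand of Ccr3 that attracts eosinophils and that fibroblasts also make, did not part the groups. Its lowest, median and highest values were 14.8, 34.5 and 92.2 TPM in KO and 18.6, 41.4 and 139 TPM in WT. Replicate 7 was the highest library in either group. Its log2 fold change was -0.33 ± 0.44 (SE; limma adjusted p = 0.757), and -0.34 ± 0.36 over the 11 libraries (adjusted p = 0.807). Summed fibroblast markers were also highest in those libraries, at 1162 TPM in KO replicate 7 and 2230 TPM in WT replicate 7; they spanned 311 to 1162 TPM in KO and 435 to 2230 TPM in WT, with 6 of 7 lower in KO, and their part was not tested. The 5 eosinophil markers summed to 9.53 to 28.7 TPM in KO, highest in replicate 7, and 5.88 to 20.7 TPM in WT, with 3 of 3 tested markers higher in KO and 0 called. Ear2 stood at 14.2 ± 7.17 TPM in KO and 10.8 ± 4.78 TPM in WT, and Prg2 at 3.28 ± 2.08 TPM in KO and 1.69 ± 1.83 TPM in WT (SD, n = 7 each), while Siglecf and Epx were under 1 TPM in all 14 libraries. The part of these markers in the level of Ccl11 was not tested.

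The patterns of the members over the libraries were compared as the mean absolute difference of standardised log2 levels, which is 0 for identical patterns and is given in SD units. Over 14 libraries Ccl6 and Ccl9 were nearest to each other among the members (0.417), as were Ccl2 and Ccl7 (0.461), Ccl5 and Ccl8 (0.429) and Ccl3 and Ccl4 (0.616). Among all tested genes, Ccl9 was number 68 by likeness to Ccl6, and Ccl6 number 5 to Ccl9. Ccl7 was number 10 for Ccl2, and Ccl2 number 6 for Ccl7. Ccl4 was number 77 for Ccl3, and Ccl3 number 151 for Ccl4. Many other genes were nearer in the remaining pair: Ccl8 was number 1845 for Ccl5, and Ccl5 number 544 for Ccl8. Of these pairs, Ccl2 with Ccl7, Ccl6 with Ccl9 and Ccl3 with Ccl4 are direct neighbours on chromosome 11, while Ccl5 and Ccl8 are not. Over the 11 libraries the values were 0.478 for Ccl6 and Ccl9, 0.521 for Ccl2 and Ccl7, 0.622 for Ccl5 and Ccl8, and 0.259 for Ccl3 and Ccl4. There Ccl8 was nearer to Ccl7 (0.533) and Ccl2 (0.546) than to Ccl5, and the nearest member to Ccr2 was Ccl5 (0.623), with Ccl7 at 0.807. Ccr2, on chromosome 9, was nearest to Ccl7 at 0.682, which was number 4255 among the tested genes by likeness. The median difference from all tested genes lay between 0.829 for Ccr2 and 1.14 for Ccl6. These values are descriptions over libraries whose tissue make-up differs, as the marker sums show. Skeletal muscle markers summed to 14.9 to 5274 TPM in KO and 20.2 to 17120 TPM in WT, highest in WT replicate 4. Adipocyte markers summed to 6529 to 32250 TPM in KO, highest in replicate 7, and 12870 to 26480 TPM in WT. The part of muscle and fat content in the levels of the members was not tested.

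**Figure D5:**
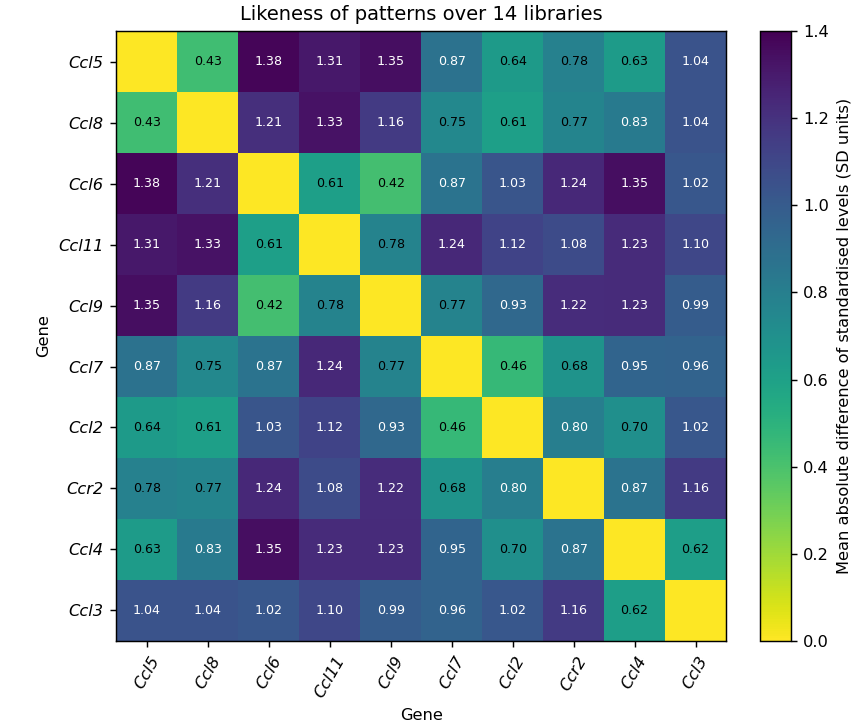
Mean absolute difference of standardised log2 levels between each pair of the 10 genes over 14 libraries, in SD units, with lower numbers for more similar patterns. Lighter squares, at 0.42 to 0.46, mark the pairs Ccl5 with Ccl8, Ccl6 with Ccl9 and Ccl2 with Ccl7, and the darkest, at 1.31 to 1.38, include Ccl5 with Ccl6, Ccl9 and Ccl11.

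Nearest genes were taken over the 14 libraries, among all tested genes with a symbol. For Ccl5 they were Marcksl1 (0.102), Il2rb (0.112), a receptor chain of T and NK cells, and Cd3e (0.112), a T-cell receptor subunit. The nearest to Ccl8 were Ifitm1 (0.183), Hpse (0.210), which encodes heparanase, and Cd209b (0.232), a lectin of lymph node and spleen macrophages. Over the 11 libraries these values were larger, at 0.245, 0.211 and 0.225 for Ccl5 and 0.276, 0.392 and 0.307 for Ccl8, in the same order. Ccl11 was nearest to Ogn (0.157), a matrix proteoglycan, Gask1b (0.172) and Fam171a1 (0.191). Ccr2 was nearest to Ncoa6 (0.162), a nuclear receptor coactivator, and Bbs4 (0.238). Ccl6 was nearest to Il1rl2 (0.263), the interleukin-36 receptor, Metrnl (0.279) and Adamtsl5 (0.285), and Ccl9 to Gnal (0.366), Slc25a25 (0.379) and Metrnl (0.409). The nearest gene was Acsl5 for Ccl2 (0.361), Cep68 for Ccl4 (0.384), Eef2kmt for Ccl7 (0.405) and Nudt8 for Ccl3 (0.410). The next were Dhodh and Lsr for Ccl2, Kcnq5 and Rfxank for Ccl4, Hook2 and Mrpl43 for Ccl7, and Yjefn3 and Adamts3 for Ccl3.

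The rest of the CC chemokine system was read from the same fit. Of 12 other CC ligands 9 were tested, 2 with lower and 7 with higher values in KO, a median log2 fold change of 0.52 and 0 called; over the 11 libraries the median was 0.04. Those of smallest p were Ccl24 (eotaxin-2) at -0.82 ± 0.42, Ccl1 at 0.62 ± 0.41, Ccl25 at 0.37 ± 0.27 and Ccl17 at 0.76 ± 0.59 (log2 fold change ± SE). Of 10 other receptors 8 were tested, 2 lower and 6 higher, with a median of 0.51 and 0 called, and 0.15 over the 11 libraries. Their smallest p were those of Ccr10 (0.51 ± 0.22; limma adjusted p = 0.412), Ccr9, Ccr4 and Ccr6, at 0.61, 0.51 and 1.06. The atypical receptors, which take chemokines up without signalling to G proteins, had lower values in 3 of 3 tested (Ackr3 at -0.66 ± 0.38, Ackr2 at -0.29 ± 0.27 and Ackr1 at -0.17 ± 0.38), with 0 called, and in 3 of 3 over the 11 libraries, with a median of -0.43.

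Inducers of chemokine genes and the signalling proteins below the receptors did not pass either. At an unadjusted p under 0.05 limma gave Ccr10 and Nup85, both higher in KO, and 0 other genes of these 5 lists, where 4.67% of all genes tested were higher in KO by that rule. Of 16 inducers tested 4 were lower and 12 higher, with a median of 0.17 and 0 called; over the 11 libraries 9 of 16 were lower and the median turned to -0.04. Tnf, the cytokine, stood at 5.06 ± 2.19 TPM in KO and 2.85 ± 1.87 TPM in WT (SD, n = 7 each; limma adjusted p = 0.494). Cebpb, Fos and Tlr4 had log2 fold changes of -0.26 ± 0.21, 0.57 ± 0.45 and -0.22 ± 0.20. Of 14 signalling genes 2 were lower and 12 higher, with a median of 0.47, 0 called, and 0.18 over the 11 libraries. Nup85, whose product binds the tail of Ccr2, stood at 29.9 ± 4.44 TPM in KO and 23.6 ± 6.01 TPM in WT (SD, n = 7 each; limma adjusted p = 0.428). Plcb3, Plcb2 and Pik3r5 had log2 fold changes of 0.30 ± 0.16, 1.00 ± 0.66 and 0.61 ± 0.47. Markers of T and NK cells (10 of 10) and of B cells (7 of 7) also had higher values in KO over 14 libraries, with 0 called. Their median log2 fold changes were 0.63 and 1.27 over 14 libraries, against -0.09 and 0.33 over the 11. The part of these markers in the medians of the inducers and signalling genes was not tested.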

How the data were processed

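The authors deposited 1 table of gene-level TPM values with a column per library and the authors' group means. The deposited columns all sum to the same fixed total, so the depth in reads is unknown, no counting interval can be given, and the spread between libraries is the error. Bowtie 0.12.2 and builds mm8 and mm9 are named, per the submitters' processing notes, with no role; the program behind the TPM, its annotation and its handling of strand are not stated in the labels. Per the labels' protocols, RNA was taken up in Trizol and made into libraries with an Illumina TruSeq kit.

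Rows of one gene name were summed. The 14719 genes that reached 1 TPM in 7 libraries or more entered the test on log2(TPM + 1) with limma-trend (limma 3.58.1, R 4.3.3, robust prior, 2-sided), KO minus WT. P-values were adjusted by Benjamini-Hochberg over all genes tested, with calls at an adjusted p under 0.05. This scale understates changes of low genes. The libraries stand for 7 mice of each genotype; litters, cages and batches are not stated, so p-values measure the spread between these mice. The members, lists and the 3 libraries left out were chosen with earlier results of these data known. Genes named are the members, the 4 genes of smallest p per pathway list, the 3 genes nearest to each member (of which 1 is not reported here), and the exceptions stated. Promoters are from RefSeq (GRCm38.p6) and matched 5 of 10 members; transcripts and exons are from GENCODE M21. Because the authors' build is uncertain, no coordinate is tied to a value. The test was tried on simulated data.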

Additional observations from a re-analysis of the deposited data

Results flagged for a closer look

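Of 20 groups tested (10 genes in KO and in WT), 2 held a library far from the rest by Dixon's test on the log2(TPM + 1) scale; chance flags about 1 in 20 groups. Ccl5 was at 35.03 TPM in KO replicate 7 and at 408 to 1064 TPM in the other KO libraries. That library also had the lowest T and NK cell marker sum of its group, at 41.5 TPM. Ccr2 was at 4.37 TPM in KO replicate 2 and at 7.21 to 9.95 TPM in the other KO libraries. KO replicate 2 had a monocyte marker sum of 196 TPM, lower than in 5 other KO libraries. The exception, KO replicate 7, had the lowest monocyte sum, at 74.2 TPM, and the highest Ccr2, at 9.95 TPM. The part of monocytes in the level of Ccr2 was not tested.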

How the results depend on the processing

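The count of changed genes over the whole table moved with most choices. It was 3 as reported, 1 without a filter on low values, 1 with rows as deposited, 19 with quantile normalization, 8 with median-ratio scaling, 6 without mitochondrially encoded genes, 823 with array weights, 25 with the B-cell score and 2469 with the macrophage score as covariate, and 0 once KO replicate 7 and WT replicates 4 and 7 were dropped. With 1 library left out it lay between 0 and 6, at 6 without KO replicate 7, 1 without KO replicate 2, and 0 without KO replicate 1, 5 or 6 or any WT replicate other than 6. The count of changed members was 0 in each of these settings except array weights, with 1 (Ccl9, lower, adjusted p = 0.0169, in a fit that called 3.91% of genes lower), and the macrophage score, with 2 (Ccl9 and Ccr2). The other CC ligands, receptors and atypical receptors gave 0 except 1 (Ccr10) with the macrophage score; Tnf, Nup85, Plcb2 and Pik3r5 also passed there.

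Ccl9, Ccl6, Ccl3, Ccl11 and Ccr2 kept their sign in 29 of 29 alternatives, but Ccl3 shrank to -0.013 with array weights and -0.22 without WT replicate 6, and Ccl11 to -0.060 without WT replicate 7. The log2 fold change of Ccl9 lay between -1.06 and -0.77 with 1 library left out, and its adjusted p between 0.0169 and 0.515 over all alternatives. Signs turned elsewhere. With the macrophage score Ccl2 stood at 0.26, Ccl7 at 0.11, Ccl8 at 0.23 and Ackr1 at 0.11. Ccl5 was at -0.015 with array weights, -0.26 without the 3 libraries and -0.25 with the B-cell score. Ccl4 was at -0.042 with quantile normalization and -0.18 without the 3 libraries, and Cebpb at 0.039 with array weights. With 1 library left out the ranges were -0.48 to 0.18 for Ccl2, -0.029 to 0.32 for Ccl4, -0.10 to 1.37 for Ccl5, -0.46 to 0.064 for Ccl7, -0.93 to 0.041 for Ccl8 and -0.38 to 0.15 for Ackr1. The cause of these turns was not tested.

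Whether the replicate numbers pair the libraries was not settled. For this, the deviation of each gene from its group mean on the log2 scale was correlated over genes between KO and WT libraries. Correlations of same-numbered libraries were 0.112, -0.672, 0.597, -0.18 and 0.803 for numbers 3 to 7. Those of numbers 4 and 6 were below 0. The highest correlation of each of these KO libraries with a WT library of another number from 3 to 7 was 0.128, 0.695, 0.477, 0.397 and 0.746. WT replicates 8 and 9 were not compared. Among the WT libraries of numbers 3 to 7, the same number was thus the closest for numbers 5 and 7 only. Over the 10 libraries with shared numbers, 0 genes were changed with the replicate block and 0 without it, and in both fits Ccl2 was at 0.49 and Ccl7 at 0.28.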

Other observations

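The spread of the members was wider in WT than in KO. The coefficient of variation was larger in WT for 10 of 10 members, against 67.4% of all genes tested, and over the 11 libraries for 9 of 10, against 62.7%. It was 26.9% in KO and 102% in WT for Ccl3, 13.5% in KO and 75.7% in WT for Ccl4, and 40.2% in KO and 40.3% in WT for Ccl9. WT replicate 6 was the highest library for Ccl3 and Ccl4, and WT replicate 8 for Ccl2 and Ccl7. This was chosen after the values were seen and was not tested.

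Ccl12, a ligand of Ccr2 in mice that lies between Ccl11 and Ccl8 on chromosome 11, was named after its values were seen. It stood at 18.6 ± 17.0 TPM in KO and 21.2 ± 18.7 TPM in WT (SD, n = 7 each; limma log2 fold change 0.08 ± 0.86 SE, adjusted p = 0.974), and the log2 fold change turned to -0.62 ± 0.49 over the 11 libraries with many B-cell transcripts (limma adjusted p = 0.724). It was at 1.56 TPM in KO replicate 7, 0.58 TPM in WT replicate 4 and 1.33 TPM in WT replicate 7, and at 5.57 TPM or more in the other 11 libraries. Ccl24, the other eotaxin measured, was at 11.5 TPM in KO replicate 7, 11.5 TPM in WT replicate 4 and 33.0 TPM in WT replicate 7, while the other KO libraries were at 1.93 to 7.06 TPM and the other WT libraries at 3.04 to 14.7 TPM.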
